A study of Mus musculus with 18 samples.

Results

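The amino acid transporters described here are the protein-coding mouse genes of the solute carrier families 1, 7, 36, 38 and 43, chosen by their symbols. Of 47729 genes in the count table, 40 had such a symbol, and 2 of these, *Slc7a11* and *Slc1a3*, were left out by name. The set therefore held 38 genes, of which 32 had enough counts to be tested among 18958 tested genes. The rule itself used only the symbols and no measured value.

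Amino acids cross the plasma membrane mainly through carriers. The carriers of family 1 are driven by sodium and take up glutamate or exchange small neutral amino acids, and those of family 7 either carry cationic amino acids alone or form the light chain of a heterodimer with the heavy chain *Slc3a2* or *Slc3a1*. Families 36 and 38 move small neutral amino acids together with protons or sodium. Family 43 includes carriers that let large neutral amino acids through by facilitated diffusion. In the eye, the retinal pigment epithelium (RPE) lies between the choroidal blood supply and the photoreceptors, and amino acids reaching the outer retina pass through it. Nrf2, encoded by *Nfe2l2*, is a transcription factor of the antioxidant response, and its best known target among amino acid carriers is *Slc7a11*, the cystine/glutamate exchanger.

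Per the labels, the samples were RPE RNA from both eyes of 9 *rd1* mice at P40, 1 library per eye. The study's methods give fewer *rd1* pairs at this age and further pairs of the CD1 strain, and both together equal the number of pairs analysed here. The labels, which name *rd1* for all 18 libraries, were followed, and whether some of these mice were CD1, which lack the *rd1* mutation, was not tested and bears on every value given here. The *rd1* mutation in *Pde6b* makes rods degenerate early and cones later, and by these labels every eye of both groups carried it. The Best1-Nrf2 eyes were injected with AAV Best1 Nrf2, which holds the human cDNA, plus AAV Best1 GFP, while the control eye of the same mouse got AAV Best1 GFP and no other vector, so the groups also differed in the number of vectors. The Best1 promoter restricts the transgenes to the RPE, whereas the RNA was purified from the solution in which the eyecup, freed of the retina, had been placed, and was amplified before sequencing. Markers of other cell types were detected in it, and in such bulk samples fewer cells of a type and less RNA per cell cannot be told apart.

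The labels were checked on the mouse gene *Nfe2l2*, to which reads of the human cDNA in the vector may align. It was raised in each of 9 treated eyes over its fellow eye, by 1.13 to 3.08 on the log2 scale (fitted log2 fold change 2.29, edgeR adjusted p = 6.21e-05). Whether the added reads came from the vector or from the mouse gene was not tested. Library totals ranged from 18956748 to 44054836 counts in control eyes and from 32839893 to 49598700 in Best1-Nrf2 eyes. Marker lists moved with the treatment. Cone markers fell (10 of 11 lower, with summed levels of 311 to 2192 CPM in control and 53.7 to 324 CPM in treated eyes, where CPM is the count scaled to a common library size with TMM factors), 6 of 21 RPE markers fell (15090 to 71544 against 19264 to 81401), and 12 of 20 macrophage and microglia markers rose (227 to 558 against 247 to 920). Of the 10 rod markers tested among 12, 3 were lower and 1 was higher (135 to 591 against 280 to 611), 1 of the 15 inner retina markers tested among 20 was higher (409 to 1079 against 367 to 1834), 1 of 10 fibroblast markers was higher (252 to 750 against 453 to 1025), and none of 10 Müller glia (999 to 2062 against 1515 to 2749), 10 endothelial (88.4 to 208 against 39.1 to 333) and 5 tested red blood cell markers (295 to 3175 against 341 to 5347) passed the test. Single genes carried much of some sums. In the RPE list, *Ttr*, which was not called, was at 3711 to 39827 CPM in control and 6499 to 54488 CPM in treated eyes. The median RPE sum was 45214 CPM in control and 24907 CPM in treated eyes. *Rom1*, the rod marker that rose, was at 243 to 590 CPM in treated eyes. The inner retina marker *Trpm1* was at 136 to 924 CPM in control eyes. No marker in these lists was at 0 in every eye of a group. The control eye of mouse 8 had the lowest summed RPE markers of its group, and the Best1-Nrf2 eye of mouse 6 the highest summed cone and inner retina markers of its own. Where leaving out these mice changed the call of a transporter, the value without them is given beside it.

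Promoter sequence was available for 27 of the 38 genes from RefSeq (GRCm38.p6, 250 bases before to 50 after each start site). Both strands were searched for the core of the antioxidant response element, TGACNNNGC, which Nrf2 binds, and for a core of the amino acid response element, TGATGNAA, which is known from genes induced by amino acid shortage. The first was in 12.4% of all 32851 promoter windows and in 6 of the 38 windows of these genes (15.8%), belonging to 5 genes (*Slc36a1*, *Slc38a2*, *Slc43a1*, *Slc7a1* and *Slc7a6*). The second was in 3.97% of all windows and in 3 of the 38 (7.89%), which belong to *Slc1a4* and *Slc7a7*. The window of *Slc7a11* held the second on both strands and did not hold the first. The window of *Slc7a10* held neither. Because *Slc1a4* was the transporter with the largest rise, its promoter is shown with the 250 bases before the start site and the first 30 bases from it. The amino acid response core, in capitals, is here on the opposite strand. It begins 4 bases before the start site and runs past it (chr11:20332684-20332963, minus strand, GRCm38.p6):
Slc1a4: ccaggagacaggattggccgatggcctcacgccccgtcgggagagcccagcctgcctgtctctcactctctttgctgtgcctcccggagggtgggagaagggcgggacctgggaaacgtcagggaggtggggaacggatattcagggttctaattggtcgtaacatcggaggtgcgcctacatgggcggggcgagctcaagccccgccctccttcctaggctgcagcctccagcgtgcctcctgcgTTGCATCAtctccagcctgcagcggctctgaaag

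The same core began 66 bases before the *Slc7a11* start site on the sense strand and 47 bases before it on the other. In *Slc7a7* it began 141 bases and 1 base before the start site of 1 window, and the nearer copy ran past that site. The nearer copy also began 243 bases before the start site of another window. The stretches around them are set beside that of *Slc1a4* to compare the letters of the core, again in capitals (all on the minus strand of GRCm38.p6, at chr11:20332694-20332733, chr3:50443656-50443695, chr3:50443637-50443676, chr14:54418062-54418101 and chr14:54417922-54417961):
Slc1a4: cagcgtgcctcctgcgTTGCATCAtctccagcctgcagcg
Slc7a11, sense: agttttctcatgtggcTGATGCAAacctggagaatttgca
Slc7a11, antisense: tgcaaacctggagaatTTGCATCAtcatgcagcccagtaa
Slc7a7, far: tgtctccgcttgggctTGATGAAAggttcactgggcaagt
Slc7a7, near: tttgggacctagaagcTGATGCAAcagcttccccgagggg
The 8 letters of *Slc1a4* equal those of *Slc7a11* on the antisense strand. Read from the other strand they are TGATGCAA, which is also the sense copy of *Slc7a11* and the near copy of *Slc7a7*. *Slc7a7* did not pass the edgeR test. These are matches of letters in a window, and no binding was measured.

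In control eyes the carriers spanned a wide range. Compared per length (CPM per kilobase of exon), the highest was *Slc7a10*, the alanine-serine-cysteine light chain Asc-1, with a median of 90.4 (range 24.1 to 170). It was followed by *Slc1a1*, the glutamate and cysteine carrier EAAT3, at 71.9 (20.8 to 192), and by *Slc38a3*, a glutamine carrier, at 28.0 (9.58 to 54.4). Next came *Slc38a10*, a family member with a less defined substrate range, at 15.4 (5.14 to 63.9), and *Slc38a8*, a glutamine carrier expressed in the retina, at 15.2 (6.65 to 18.9). *Slc7a10* alone made up 30.3% of the summed medians. *Slc7a10* was above *Slc1a1* in 6 of the 9 control eyes, *Slc1a1* was above *Slc38a3* in 9, *Slc38a3* above *Slc38a10* in 7 and *Slc38a10* above *Slc38a8* in 5, and the ranges of all these neighbours overlapped. With the length of the longest transcript in place of the exon union, the same 5 genes led, with *Slc1a1* first.

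**Figure D1:**
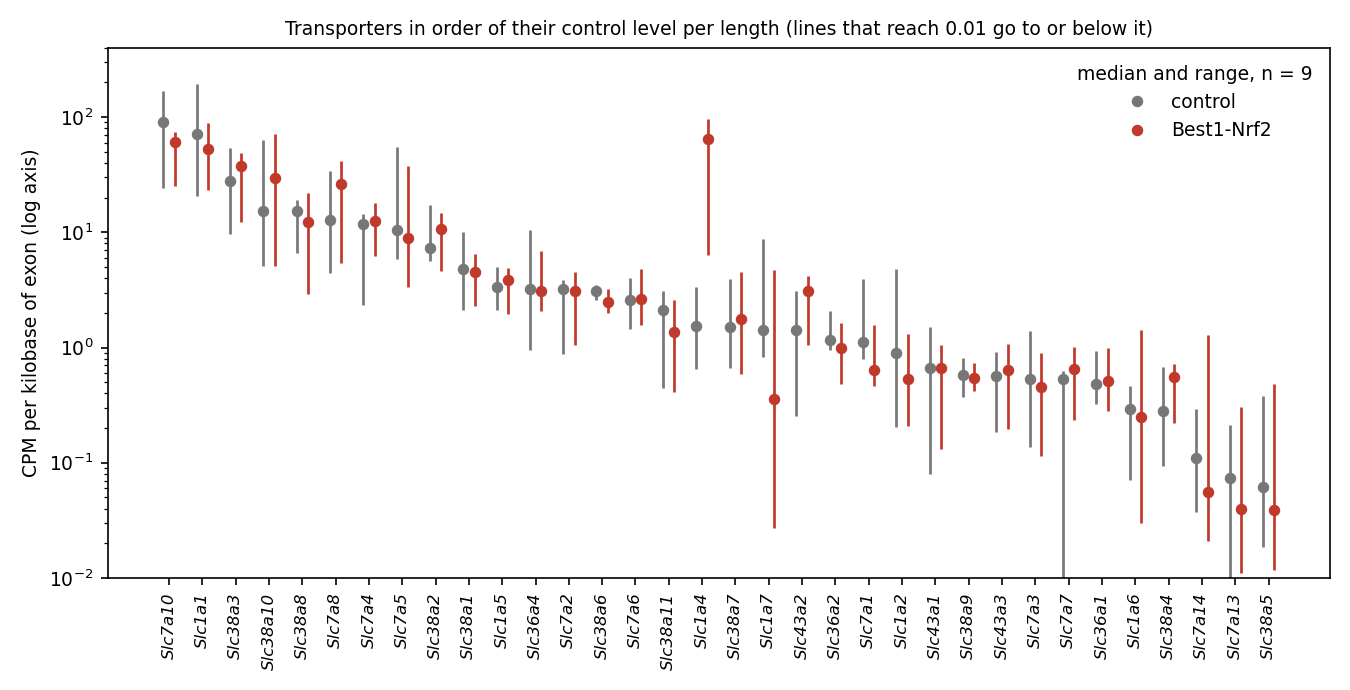
Level per length (CPM per kilobase of exon, log axis) of the transporters with a control median above 0, in control order, with points for medians and lines for the range over 9 eyes per group. *Slc1a4* moved from rank 17 in control to rank 1 in Best1-Nrf2 eyes, while *Slc7a10* moved from 90.4 to 61.0 and from rank 1 to rank 2.

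With Best1-Nrf2, 1 of the 32 tested transporters was higher and 1 was lower by edgeR. These are 3.12% each, where 3.12% of all tested genes were higher and 1.13% lower (together 6.25% of the transporters and 4.25% of all genes). With 1 gene in either direction, these counts single out no pattern of the set. DESeq2 called 2 transporters higher and 4 lower, where it called 940 and 538 of all 18958 tested genes. Voom called 2 and 3, where it called 924 and 502 of all tested genes. The fold changes of the set were centred near 0, with 16 positive and 16 negative values and a median log2 fold change of -0.01, against -0.03 over all tested genes. The gene that rose was *Slc1a4* and the gene that fell was *Slc7a10*. Of the other 30, 13 had a 95% interval that lay within a 2-fold change in either direction, and 17 had wider intervals. Among the 17, the intervals of *Slc1a2*, *Slc1a7*, *Slc7a1*, *Slc38a4* and *Slc43a2* left out 0, as did that of *Slc1a1* among the 13. These genes nevertheless missed the adjusted threshold. For the rest of the 17, a change beyond 2-fold could not be told from none. An unadjusted p under 0.05 was reached by 8 of the 32 (25%) and by 2434 of all 18958 tested genes (12.8%).

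**Figure D2:**
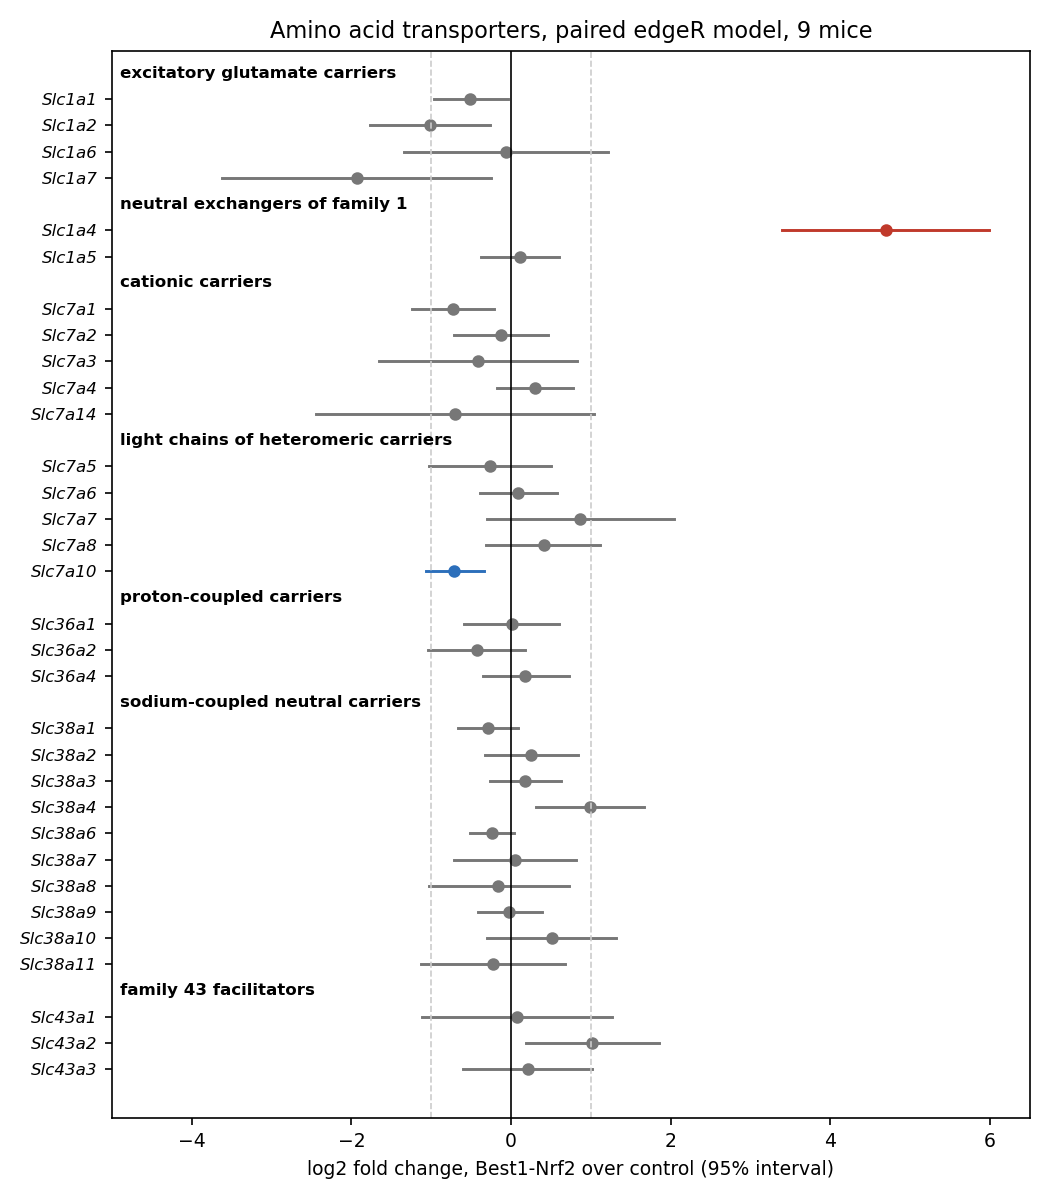
Log2 fold change of Best1-Nrf2 over control eyes for the 32 tested transporters, grouped by role, as points with 95% intervals from the paired edgeR model (9 mice). *Slc1a4* (red) at 4.70 and *Slc7a10* (blue) at -0.71 passed the adjusted threshold, and dashed lines mark a 2-fold change.

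*Slc1a4* encodes ASCT1, a sodium-dependent exchanger of alanine, serine, cysteine and threonine (ENSMUSG00000020142, chr11:20302180-20332713, minus strand, GRCm38). In mice 1 to 9, its control levels were 4.92, 2.67, 2.56, 9.29, 6.00, 7.27, 7.20, 13.3 and 6.06 CPM, and its Best1-Nrf2 levels were 159, 379, 30.9, 324, 322, 24.8, 367, 57.5 and 252 CPM. The groups did not overlap, as the lowest treated eye, that of mouse 6, was above the highest control eye, that of mouse 8. The control mean of 6.58 ± 3.32 CPM compares with a treated mean of 213 ± 147 CPM (SD over 9 eyes in both), and the log2 fold change was 4.70 (SE 0.59, 95% interval 3.40 to 5.99, edgeR adjusted p = 0.000587), a fitted average of 26-fold, with a rise of some size in 9 of 9 mice. By fold, *Slc1a4* ranked 33 among the 592 genes that rose.

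The size of the rise differed widely between mice. It ran from 3.39-fold in mouse 6 to 139-fold in mouse 2, with a median of 34.7-fold. The treated eyes fell into a low end of mice 3, 6 and 8, at 24.8 to 57.5 CPM, and a high end of the other 6, at 159 to 379 CPM. The same 3 mice had the smallest rises of *Slc7a11*, at 1.95, 2.28 and 2.27 on the log2 scale, where the other 6 had 3.03 to 4.90. *Nfe2l2* rose least in mice 8, 6 and 1 (1.13, 1.84 and 1.98 on the log2 scale), so mouse 3, at 2.41, was not among its lowest. The treated eyes of these 3 mice also had the highest sums of most marker lists. Mouse 3 had the highest summed RPE, Müller glia, fibroblast and red blood cell markers of its group. Mouse 6 had the highest summed cone, inner retina and endothelial markers, and mouse 8 the highest summed macrophage and microglia markers. Highly expressed genes weigh most in these sums, and *Ttr* reached 54488 CPM in treated eyes where the RPE sum reached 81401 CPM. Mice 3 and 8 had the lowest TMM factors (0.715 and 0.773, against 0.987 to 1.16 in the other treated eyes). The part of these differences in the *Slc1a4* levels was not tested mouse by mouse.

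Per length, *Slc1a4* had a control median of 1.54 CPM per kilobase, at percentile 43.5 of all tested genes, and a Best1-Nrf2 median of 64.1, at percentile 95.3. Its share of the summed transporter level went from 0.569% (range 0.192% to 2.92%) to 14.5% (3.48% to 24.1%), and it was the highest transporter in 4 of the 9 Best1-Nrf2 eyes and in no control eye. None of its sequence words of 31 bases occurred in another annotated gene, and no gene lay antisense to its exons. The call held without each mouse in turn (log2 fold change 4.39 to 5.03, adjusted p 0.000152 to 0.0028) and without mice 6 and 8 together (5.39, adjusted p = 3.51e-05). It was lost with a covariate for rod and cone markers (2.33, adjusted p = 0.21) or for macrophage and microglia markers (4.97, adjusted p = 0.453). In those models 36 and 16 of all genes passed, and the mouse gene *Nfe2l2* did not (adjusted p = 0.13 and 0.0744). The treatment and these marker levels therefore cannot be told apart there.

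*Slc1a5*, the other neutral exchanger of family 1 (ASCT2, a glutamine carrier), gave a different picture. Its control levels were 8.78 to 20.7 CPM with a median of 13.9, and its Best1-Nrf2 levels were 8.21 to 20.3 CPM with a median of 16. The ranges nearly coincided. The log2 fold change was 0.11 (SE 0.22, 95% interval -0.38 to 0.60, edgeR adjusted p = 0.927, higher in 6 of 9 mice), so a rise beyond the upper bound was outside the interval. In each of the 9 mice the difference between eyes was larger for *Slc1a4* than for *Slc1a5*.

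**Figure D3:**
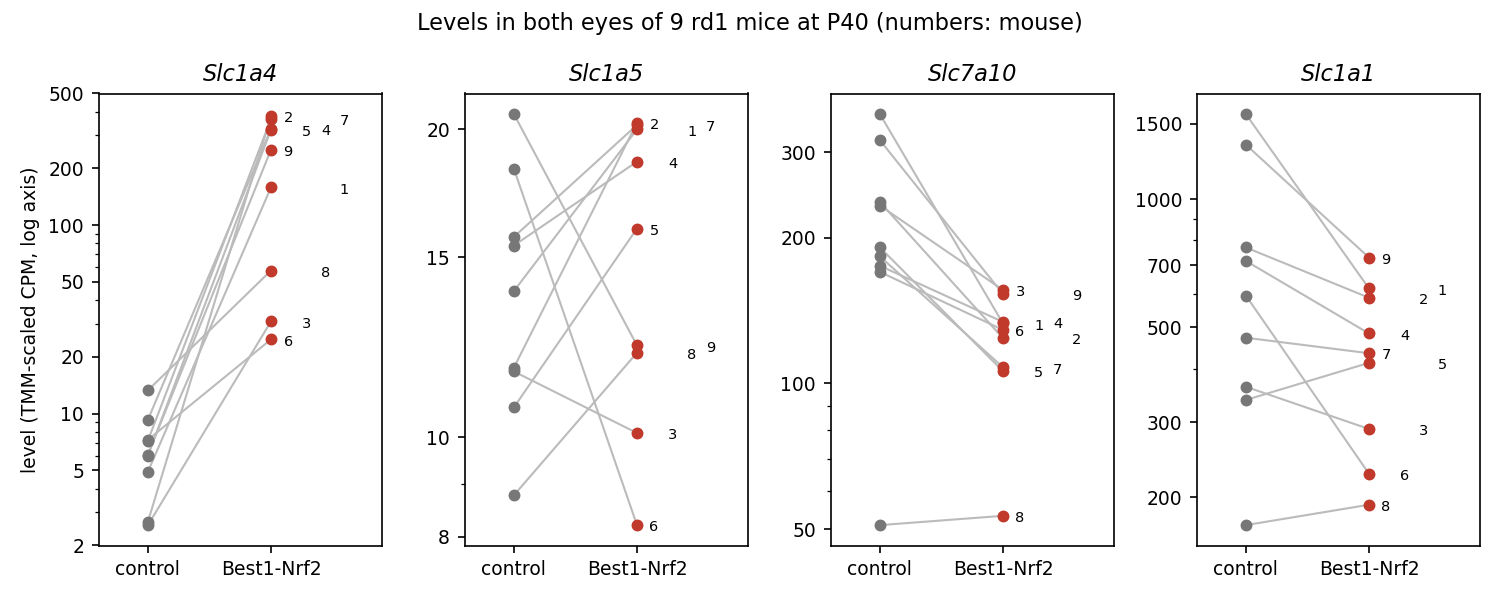
TMM-scaled CPM (log axis) of *Slc1a4*, *Slc1a5*, *Slc7a10* and *Slc1a1* in both eyes of 9 mice, with a line per mouse and the mouse number beside the treated eye. All *Slc1a4* lines rose, with mice 3, 6 and 8 lowest among treated eyes, and *Slc7a10* was lower in all mice but mouse 8.

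*Slc7a10*, the highest carrier per length in control eyes, was the transporter that fell in the edgeR test (ENSMUSG00000030495, chr7:35186385-35201114, plus strand, GRCm38). In mice 1 to 9 its control levels were 360, 237, 233, 175, 191, 170, 183, 51.0 and 318 CPM, and its Best1-Nrf2 levels were 133, 124, 156, 134, 106, 129, 108, 53.3 and 153 CPM. Mouse 8 was low in both eyes and was the only mouse without a lower treated eye. Among the other 8 mice the lowest control eye, at 170 CPM, was above the highest treated eye, at 156 CPM. The control mean of 213 ± 89.8 CPM compares with a treated mean of 122 ± 30.8 CPM (SD over 9 eyes in both), and the log2 fold change was -0.71 (SE 0.17, 95% interval -1.07 to -0.34, edgeR adjusted p = 0.0337, lower in 8 of 9 mice). Of the 214 genes that fell, 204 fell further.

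The *Slc7a10* call depended on the mice and the settings. It was kept without mouse 6 (adjusted p = 0.0287), without mouse 8 (0.018) and without both (-0.86, adjusted p = 0.0112), and was lost without any 1 of mice 1, 2, 3, 4, 5, 7 and 9 (adjusted p 0.0584 to 0.116, largest without mouse 1, with a log2 fold change of -0.56). It was also lost without the pairing of eyes (-0.81, adjusted p = 0.144), without a count filter (-0.68, adjusted p = 0.0809), and with a covariate for rod and cone markers (-0.20, adjusted p = 0.805) or macrophage markers (-0.85, adjusted p = 0.999), and it stayed negative in each of them. *Lrp3* lies antisense to 17.9% of its exon bases, and its own log2 fold change was -0.43 (adjusted p = 0.422). The RPE and cone marker lists, given above, held falling genes as well, and their part in the fall of *Slc7a10* was not tested beyond the rod and cone covariate.

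The light chains that pair with the heavy chain *Slc3a2* were compared as shares of their summed per-length level, with *Slc7a11* included since it uses the same partner. *Slc7a10* took 69.7% of that sum in control eyes (range 61.8% to 86.3%) and 48.1% in Best1-Nrf2 eyes (35.8% to 77.0%). *Slc7a11* took 0.945% (0.347% to 3.67%) and 14.9% (5.02% to 23.3%), and its groups did not overlap. *Slc7a8*, the large neutral carrier LAT2, went from 11.9% (5.59% to 21.1%) to 19% (6.86% to 28.4%), and *Slc7a5*, the large neutral carrier LAT1, from 11.3% (5.17% to 20.8%) to 7.60% (4.99% to 23.1%), with overlapping groups in both. These shares add to a whole, so a rise of 1 lowers the others, and they carry no test.

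*Slc3a2* itself was at 238 to 573 CPM in control and 367 to 970 CPM in treated eyes, with 4 treated eyes above all control eyes. Its log2 fold change was 0.40 (SE 0.20, edgeR adjusted p = 0.438, higher in 6 of 9 mice). The other heavy chain, *Slc3a1*, was at 0.72 on the same scale (adjusted p = 0.614), and at 0.37 without mice 6 and 8. Per length, *Slc3a2* was at a median of 139 CPM per kilobase in control and 149 in Best1-Nrf2 eyes, 108% and 137% of the sum of its light chains.

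The remaining tested light chains did not pass the test. *Slc7a5* had a log2 fold change of -0.26, *Slc7a6* of 0.09 and *Slc7a8* of 0.41 (adjusted p 0.865, 0.941 and 0.721). Without mice 6 and 8, *Slc7a5* was at 0.05 and *Slc7a8* at 0.70, and neither passed the test. *Slc7a7*, the cationic and neutral exchanger y+LAT1, which macrophages also express, was at 0 to 2.07 CPM in control and 0.771 to 3.34 CPM in treated eyes, with a log2 fold change of 0.87 (adjusted p = 0.586). The control eye of mouse 8 was the one at 0, and without that mouse the value was 0.54 (adjusted p = 0.472). The part of the macrophage marker level in that value was not tested beyond the covariate, with which it was -1.02 (adjusted p = 0.999).

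None of the 4 glutamate carriers passed the edgeR test, although DESeq2 and voom called *Slc1a2* (adjusted p = 0.0354 and 0.0126) and *Slc1a7* (0.0145 and 0.0447) lower. The 4 fold changes were negative, and 3 of them had an unadjusted p under 0.05. *Slc1a1* was at 172 to 1582 CPM in control (median 594) and 192 to 729 CPM in treated eyes (median 435), lower in 7 of 9 mice, and the log2 fold change was -0.51 (SE 0.21, edgeR adjusted p = 0.32). The spread of its control eyes was wide (705 ± 472 CPM; SD, n = 9), and 31.5% of its sequence words are shared with the antisense gene *4430402I18Rik*, which was at a control median of 3.14 CPM. *Slc1a2*, the glial and cone carrier GLT-1, was at 2.68 to 63.3 CPM in control and 2.72 to 17 CPM in treated eyes, and the log2 fold change was -1.02 (SE 0.34, adjusted p = 0.169). It passed the test without mouse 6 (-1.25, adjusted p = 0.0349) and without mice 6 and 8 (-1.41, adjusted p = 0.0197).

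*Slc1a7*, the photoreceptor and bipolar cell carrier EAAT5, had the lowest fold change of the set. It was at 2.79 to 29.2 CPM in control (median 4.81) and 0.0908 to 15.8 CPM in treated eyes (median 1.20), with 7 treated eyes below every control eye, and its log2 fold change was -1.93 (SE 0.77, adjusted p = 0.285). With a covariate for rod and cone markers, the values of *Slc1a2* and *Slc1a7* turned to 0.69 and 1.66, and the part of the falling cone markers in these values was not tested in another way. *Slc1a6*, a carrier best known from cerebellar Purkinje cells, was at or under 3.05 CPM in every eye and had a log2 fold change of -0.06 (adjusted p = 0.985).

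Of the 5 cationic carriers and their relatives, none passed the edgeR test, and DESeq2 called *Slc7a1* lower (adjusted p = 0.0306). *Slc7a1*, the main arginine and lysine carrier CAT-1, was at 9.18 to 45.4 CPM in control (median 12.9) and 5.36 to 18.1 CPM in treated eyes (median 7.31), and the log2 fold change was -0.73 (SE 0.23, edgeR adjusted p = 0.135, lower in 7 of 9 mice). It passed the test without mouse 5 (-0.88, adjusted p = 0.0456). *Slc7a2* had a log2 fold change of -0.13, *Slc7a3* of -0.42, and the less understood *Slc7a4* and *Slc7a14* of 0.30 and -0.70 (adjusted p 0.686 to 0.927). Without mice 6 and 8, *Slc7a3* was at -0.92, and without mouse 6 *Slc7a14* was at -1.16, and neither passed the test. The interval of *Slc7a14* was wide, from -2.44 to 1.04.

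None of the 3 tested proton-coupled and 10 tested sodium-coupled carriers passed the edgeR test, and DESeq2 and voom called *Slc38a4* higher (adjusted p = 0.0226 and 0.0388). *Slc36a1*, a lysosomal and plasma membrane carrier, had a log2 fold change of 0.01, *Slc36a2* of -0.43 and *Slc36a4* of 0.18. Among the sodium-coupled carriers, *Slc38a4*, a carrier best known from liver, came nearest to the threshold: it was at 0.399 to 2.89 CPM in control and 0.939 to 3.04 CPM in treated eyes and higher in 8 of 9 mice, and the log2 fold change was 0.99 (SE 0.31, edgeR adjusted p = 0.129). *Slc38a2*, which cells make more of when amino acids are short, was at 0.25 on the log2 fold change scale (SE 0.27, adjusted p = 0.818).

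The other sodium-coupled carriers lay between -0.29 (*Slc38a1*) and 0.51 (*Slc38a10*), the latter at 0.90 without mice 6 and 8 and still short of the threshold. *Slc38a3* had 0.17, *Slc38a7* 0.05, *Slc38a8* -0.16, *Slc38a9*, a lysosomal arginine sensor, -0.02, and *Slc38a11* -0.23 on the log2 scale. *Slc38a6* was lower in 8 of 9 mice by a small amount (-0.24, SE 0.13, adjusted p = 0.497), and 40.7% of its sequence words are shared with other genes, *Noct* among them. Of family 43, *Slc43a2*, the large neutral carrier LAT4, was at 2.57 to 31.3 CPM in control and 10.6 to 42.2 CPM in treated eyes, higher in 7 of 9 mice (1.02, SE 0.38, adjusted p = 0.234), and *Slc43a1* and *Slc43a3* had 0.08 and 0.21.

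**Figure D4:**
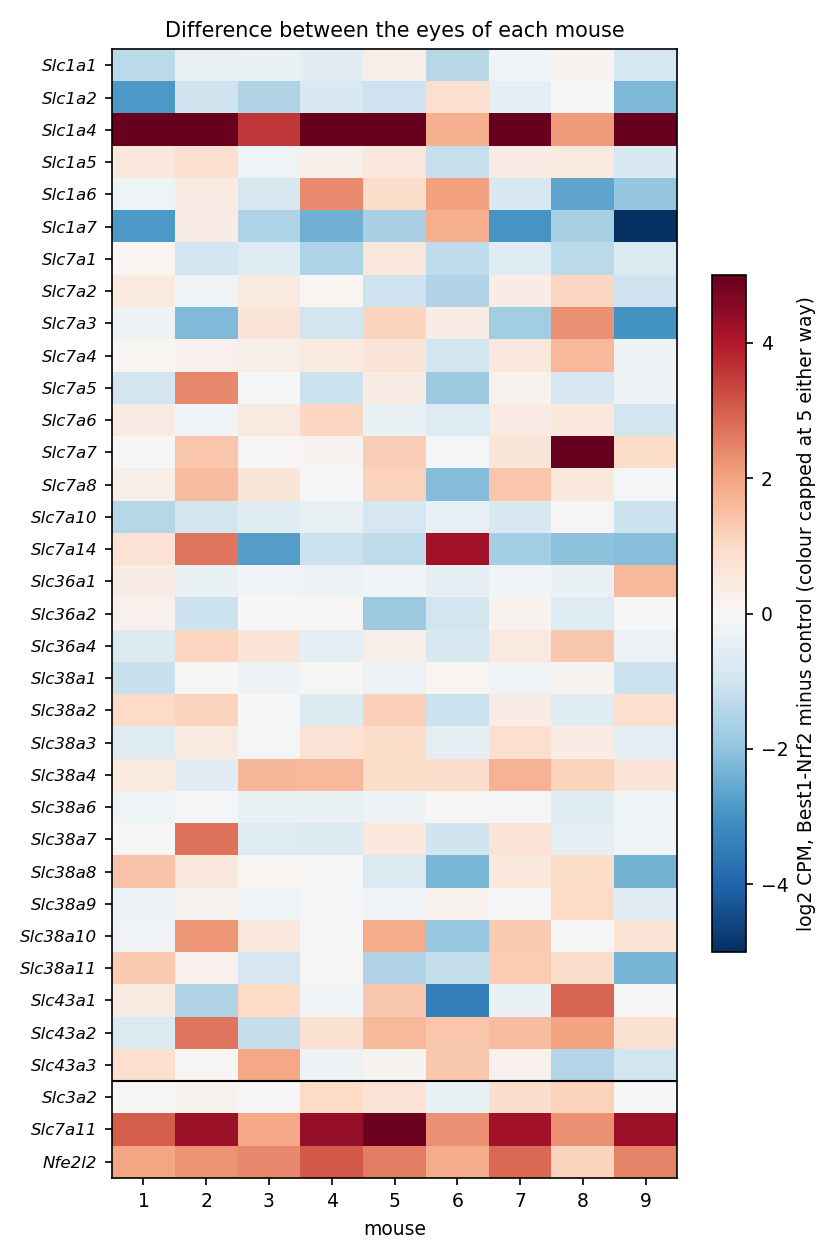
Difference in log2 CPM between the Best1-Nrf2 and the control eye of each of 9 mice (columns) for the 32 tested transporters and, below the line, *Slc3a2*, *Slc7a11* and *Nfe2l2*; the colour is capped at 5 in either direction. *Slc1a4* is red in all 9 columns, with 1.76 in mouse 6 and 7.12 in mouse 2, which holds for no other of the 32.

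A further 6 members were too low to test. *Slc7a12* had 0 of 664767014 counts over the 18 libraries, which allows up to 0.00451 CPM by counting error alone. *Slc7a9*, *Slc7a15*, *Slc36a3*, *Slc7a13* and *Slc38a5* had 2, 7, 14, 99 and 151 counts in all. The light chain *Slc7a9* and the related *Slc7a13* are known from kidney, where they pair with *Slc3a1*.

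The summed per-length level of the transporters was 326 CPM per kilobase in control (median, range 116 to 653) and 399 in Best1-Nrf2 eyes (141 to 506), higher in 5 of 9 mice. Without *Slc1a4* the medians were 324 and 305. The ranges overlapped with and without it.

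Related genes were grouped in lists by function. Of 25 tested carriers of other families, 1 was higher and 1 lower, where 3.12% and 1.13% of all tested genes were, and the median log2 fold change was -0.15. *Slc6a17*, a neuronal vesicular carrier of neutral amino acids, was at 7.75 to 27.4 CPM in control and 17 to 32.8 CPM in treated eyes (log2 fold change 0.64, SE 0.16, edgeR adjusted p = 0.0485, higher in 9 of 9 mice), with overlapping groups. This call was lost in 15 of 21 alternative settings, among them RLE scaling (0.63, adjusted p = 0.0515), no block (0.59, adjusted p = 0.166) and leaving out any 1 of 7 mice (0.56 to 0.71, adjusted p 0.059 to 0.141). The fold change of *Slc6a17* moved little in these. It moved further where the call was lost with the rod and cone covariate (0.40, adjusted p = 0.606) or the macrophage covariate (0.39, adjusted p = 0.999). *Slc6a20a*, a proline carrier, was at 116 to 1047 CPM in control and 99.4 to 318 CPM in treated eyes (-1.14, SE 0.22, adjusted p = 0.00925, lower in 9 of 9 mice), and with the rod and cone or the macrophage covariate it was -1.16 and -1.74 but no longer passed (adjusted p = 0.271 and 0.496).

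Of 20 genes of the response to amino acid starvation, 2 rose and none fell, where 3.12% of all tested genes were higher, and the median log2 fold change of the list was -0.13. These were *Eif4ebp1*, a translation inhibitor, at 1.53 (SE 0.21, edgeR adjusted p = 0.00102), and the transcription factor *Cebpb* at 0.90 (SE 0.15, adjusted p = 0.00371), each higher in 9 of 9 mice. Neither passed with the rod and cone covariate (1.14 and 0.66, adjusted p = 0.23 and 0.314) or with the macrophage covariate (2.07 and 0.98, adjusted p = 0.273 and 0.976), while both stayed positive. The others missed the threshold in both directions, and those named here were chosen after their values were seen. *Atf3* was at 0.76 (adjusted p = 0.0757, higher in 8 of 9 mice) and *Eif2ak4*, a sensor of amino acid shortage, at 0.42 (0.476). Negative values included those of *Trib3* -0.88 (adjusted p = 0.277), *Asns*, the asparagine synthetase, -0.74 (0.41), *Chac1* -0.74 (0.563), and the serine synthesis enzymes *Phgdh* -0.61 (0.102) and *Psat1* -0.46 (0.155). *Atf4*, which drives that response and is largely controlled in translation, had -0.25 (adjusted p = 0.422). None of 26 genes of amino acid sensing by mTORC1 (median -0.02) and none of 14 enzymes of glutamate and glutamine (median 0.04) passed the edgeR test. Of the genes left out by name, *Slc7a11* rose from 10.4 to 20.2 CPM in control eyes to 69.4 to 380 CPM (3.53, SE 0.37, adjusted p = 0.000161, higher in 9 of 9 mice). With the same covariates it was 2.50 and 3.98 and did not pass (adjusted p = 0.156 and 0.21). *Slc1a3*, the glutamate carrier of Müller glia, had -0.20 (adjusted p = 0.936).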

How the data were processed

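The authors aligned reads to mm10 with STAR, counted them with featureCounts and also ran Salmon and tximport with DESeq2. Salmon 0.8.1 is named in the submitters' processing notes. The deposited table holds unscaled estimated counts for Ensembl genes as whole numbers, and which counter made it is not given in the sources used here. Here, filterByExpr left 18958 genes, libraries were scaled by TMM, and a quasi-likelihood model with mouse as a block was fitted to all of them in edgeR 4.0.16 (R 4.3.3). P values were adjusted by Benjamini-Hochberg over all of them, with a threshold of 0.05. Log2 CPM used a prior count of 2. Lengths and coordinates came from GENCODE mouse release 21 (GRCm38). The scripts were tested on simulated data.

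Both eyes of a mouse carry the same number in the labels, so the numbers pair the libraries. After group means were removed, the correlation between the eyes of a mouse had a median of -0.000949 (-0.373 to 0.644). Sequencing runs could not be assigned to libraries. No molecular identifiers are described, so intervals from counts cover counting error only.

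The transporters and all gene lists were chosen with earlier results of these data known. The text gives every transporter, the genes past the threshold in each list of related genes, and the genes those lists centre on. The marker lists are given mainly as counts and summed levels, and most of their genes past the threshold are not named. Alternatives were no block, RLE and upper-quartile scaling, DESeq2 1.42.0, limma 3.58.1 voom, other count filters, a threshold of 0.1, marker covariates, and leaving out mice. Leaving out mice 6 and 8 together was chosen after seeing the data.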

Additional observations from a re-analysis of the deposited data

Results flagged for a closer look

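In each group of 9 eyes, the gap between the most extreme eye and its neighbour was set against the whole range, on the log2 CPM scale. Of 66 such groups, 9 exceeded the critical ratio of 0.493, where chance flags about 1 in 20, or 3.3. Control mouse 8 stood apart in 6 of these. Its eye was lowest for *Slc7a10* (5.67, next 7.41), *Slc7a4* (3.30, next 4.81), *Slc7a2* (3.02, next 4.30) and *Slc7a7* (-4.23, next -0.32, with 0 counts). It was highest for *Slc7a1* (5.51, next 3.99) and *Nfe2l2* (7.06, next 6.60). This library was the smallest of all, at 18956748 counts, and had the lowest summed RPE markers among control eyes. The treated eye of the same mouse was lowest for *Slc7a10* (5.74, next 6.73) and for *Slc38a4* (-0.01, next 1.02, from 29 counts). The treated eye of mouse 3 was lowest for *Slc7a7* (-0.28, next 1.00, from 20 counts).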

How the results depend on the processing

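Counts of changed transporters (1 higher, 1 lower) depended on the tool and the covariates. Over all 18958 tested genes, edgeR called 592 higher and 214 lower, DESeq2 940 and 538, and voom 924 and 502. Of the transporters, DESeq2 gave 2 higher and 4 lower, and voom gave 2 and 3. With these tools *Slc38a4* rose (0.98 and 1.05), and *Slc1a2* (-1.02 and -1.43) and *Slc1a7* (-1.95 and -2.53) fell. *Slc7a1* fell with DESeq2 (-0.73) but not with voom. Without the replicate block, which ignores the pairing of eyes, 0 were lower, and *Slc7a10* was -0.81 and *Slc1a4* 5.02. Without a count filter 0 were lower. With a covariate for rod and cone markers, or for macrophage and microglia markers, 0 were higher and 0 were lower, and *Nfe2l2* was 1.84 and 2.82 (adjusted p = 0.13 and 0.0744). Leaving out 1 mouse gave 1 higher in every case and 0 to 2 lower (*Slc1a2* and *Slc7a10* without mouse 6, *Slc7a1* in place of *Slc7a10* without mouse 5), and leaving out mice 6 and 8 gave 2 lower. Genes called in the related lists went from 5 to 12 with DESeq2, 13 with voom, 9 at a threshold of 0.1, 0 with either covariate, 4 to 9 without 1 mouse (9 without mouse 6) and 10 without mice 6 and 8. RLE scaling changed no call and no direction of a transporter, and gave 4 called genes in the related lists.

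Fold changes that turned direction had all missed the threshold, and the cause was not tested. With the macrophage covariate these were *Slc7a7* -1.02, *Slc1a5* -0.17, *Slc1a6* 3.25, *Slc36a1* -0.10, *Slc7a8* -0.61, *Slc38a2* -0.03, *Slc7a4* -0.37, *Slc43a1* -1.13, *Slc38a7* -0.62, *Slc36a4* -0.98, *Slc38a10* -0.29, *Slc7a14* 0.79 and *Slc1a3* 1.44. With the rod and cone covariate they were *Slc1a5* -0.14, *Slc1a2* 0.69, *Slc1a6* 1.70, *Slc1a7* 1.66, *Slc36a1* -0.91, *Slc7a8* -0.79, *Slc38a2* -0.96, *Slc38a1* 0.31, *Slc43a1* -1.17, *Slc7a3* 1.48, *Slc38a7* -0.65, *Slc38a9* 0.49, *Slc38a11* 0.36, *Slc38a10* -1.01, *Slc7a14* 2.03 and *Slc1a3* 1.27. With voom they were *Slc7a2* 0.01, *Slc38a8* 0.01 and *Slc38a11* 0.00, and without the block *Slc1a6* 0.48, *Slc43a1* -0.17, *Slc36a4* -0.00, *Slc7a14* 0.73 and *Slc1a3* 0.46. Smaller turns were *Slc36a1* -0.03 with upper-quartile scaling, -0.01 with at least 10 counts per library and -0.00 with the inner retina covariate, *Slc43a1* -0.06 with that covariate, *Slc38a9* 0.01 without a filter, and *Slc7a5* 0.05 without mice 6 and 8. Without 1 mouse, direction turned for *Slc1a6* (-0.40 to 0.26), *Slc7a2* (-0.28 to 0.04), *Slc38a8* (-0.32 to 0.11), *Slc38a9* (-0.13 to 0.07), *Slc43a1* (-0.23 to 0.43), *Slc38a7* (-0.23 to 0.19), *Slc36a1* (-0.18 to 0.08), *Slc38a11* (-0.43 to 0.03), *Slc7a6* (-0.03 to 0.21) and *Slc1a3* (-0.51 to 0.03).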
